A study of Mus musculus with 7 samples.

Results

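Cathepsins are proteases of the lysosome. Most members of the family are cysteine proteases and cathepsin D is an aspartic protease. They are made as inactive precursors, carried to the lysosome on mannose 6-phosphate receptors and switched on by cleavage at acid pH, and cystatins and stefins block the cysteine members. In mammary tumors they are known both for protein breakdown inside macrophages and for cleavage of matrix once they are released. The 8 genes described here (Ctsb, Ctsc, Ctsd, Ctsh, Ctsk, Ctsl, Ctss and Ctsz) were chosen by symbol, and each of the 8 was found in every matrix, among 33710 genes in all.

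The libraries came from primary mammary tumors of 7 control mice of the genotype MMTV-PyMT; HK2 f/f on a C57BL/6 background, taken 3 months after a tumor could be felt. The MMTV promoter drives the polyoma middle T oncogene (PyMT) in mammary epithelium. Both hexokinase 2 alleles were floxed but not deleted in these controls, which received the same tamoxifen injections as the deleted mice, and tumors with HK2 deletion were not analysed here. Each tumor was digested with collagenase and profiled by Drop-seq, a droplet method in which every mRNA molecule receives a unique molecular identifier (UMI). Every result therefore compares cell classes within the same control mice, and none concerns hexokinase 2. The genotype field of the labels calls all 7 samples Wild type, and the source field gives the genotype above. Sample titles begin with CB for replicates 1 to 4 and with WT for replicates 5, 7 and 8. These are called the CB and the WT series here, and the labels do not explain them.

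Of 37000 barcodes, 15047 held 200 to 6000 genes and were kept as cells, with 962677 to 4471473 UMIs per mouse and a median of 362 to 467 genes per cell. The kept barcodes fell into 18 clusters, and marker genes placed 14 of them in 7 classes. These were tumor (5482 cells), hormone-sensing luminal epithelium (1701), fibroblast (1030), endothelium (146), C1q macrophage (1869), other myeloid (757) and T/NK cells (2209). Because the classes were named from these markers, their levels describe the classes and are no check of the names. The summed level of C1qa, C1qb and C1qc was 14636 CPM (UMIs of the gene scaled to a total of 1000000 UMIs per sum) in C1q macrophages, 1407 in other myeloid cells and 34.1 in tumor cells. PYMT reached 2004 CPM in the tumor class against 104 to 270 CPM in the other 6 classes, Col1a1 5226 CPM in fibroblasts and Prlr 2468 CPM in hormone-sensing cells. Clusters left outside the 7 classes also held PYMT. It was 2754 CPM in the erythroid-like cluster 13, 915 in the myoepithelial-like cluster 15, 661 in the unnamed cluster 10 and 161 in the B or plasma-like cluster 12. By their own marker UMIs, 1172 barcodes outside the classes counted as tumor, and they are not in the tumor class. The fibroblast gene Dcn was also found in 26.0% of hormone-sensing cells (1265 CPM), against 2.59% of tumor cells, and 143 hormone-sensing barcodes counted as fibroblast by their own marker UMIs. By the same rule 464 of the 1701 hormone-sensing barcodes counted as tumor and 812 as hormone-sensing. No doublet caller was run, and 18.4% of tumor barcodes to 66.3% of hormone-sensing barcodes held at least 2 UMIs of the markers of another class (mixed barcodes). The libraries shared 5 barcodes. The sum of UMIs over the cells of a class in a mouse was the unit of every test, and endothelial sums of 10 or more cells existed in 3 mice only (replicates 4, 5 and 8).

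A small set of barcodes has to be described before the levels of Ctsk, which encodes cathepsin K, a protease best known for digesting collagen in bone. In replicate 5, 4 barcodes carried 510, 106, 88 and 73 Ctsk UMIs. They held 48.1% of the 1617 Ctsk UMIs in all kept cells, and no other barcode had more than 17. Clustering placed the barcodes with 510 and 106 UMIs in the tumor class, the one with 88 in other myeloid cells and the one with 73 in C1q macrophages. The same 4 barcodes carried 38 to 261 UMIs of Acp5 (tartrate-resistant acid phosphatase), 3 to 175 of Mmp9 (a matrix metalloproteinase) and 12 to 42 of Atp6v0d2 (a proton pump subunit), genes that osteoclasts are known to use. These genes were picked after their values were seen. The 4 held 0 or 1 PYMT UMIs, 0 or 1 UMIs of Col1a1, Col1a2, Col3a1 and Dcn together, 0 or 1 C1q UMIs and no Epcam, while their total UMIs were 7.60 to 18.6 times the median of the class they were placed in. They are given no name here. Ctsk levels and differences are shown with and without them where they bear on a call, while makeup shares, cluster means and correlations include them.

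The genes of cathepsins K and S lie side by side on mouse chromosome 3 (build mm10, GENCODE M21), both on the plus strand. Ctsk spans 95499256 to 95509362 and Ctss 95526786 to 95556403, with 17423 bases and no annotated gene between them. As shown further on, one was high in fibroblasts and the other in myeloid cells, so the 250 bases before each RefSeq start site (GRCm38.p6) are printed, in the direction of the gene. Capitals mark GAGGAA or its reverse complement TTCCTC, the core letters of the site bound by PU.1, a transcription factor of myeloid cells.

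Ctsk, chr3:95498960-95499209, plus strand: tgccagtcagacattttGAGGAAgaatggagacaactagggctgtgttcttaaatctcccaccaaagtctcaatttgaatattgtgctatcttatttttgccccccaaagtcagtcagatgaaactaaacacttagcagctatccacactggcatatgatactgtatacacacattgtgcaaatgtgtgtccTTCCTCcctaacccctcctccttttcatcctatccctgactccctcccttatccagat

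Ctss, chr3:95526536-95526785, plus strand: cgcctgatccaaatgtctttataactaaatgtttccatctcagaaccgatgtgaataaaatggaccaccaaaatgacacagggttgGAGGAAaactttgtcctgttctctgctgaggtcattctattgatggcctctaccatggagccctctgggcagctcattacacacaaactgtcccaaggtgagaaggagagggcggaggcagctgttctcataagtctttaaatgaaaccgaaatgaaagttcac

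The letters began 233 and 58 bases before the Ctsk start and 164 bases before the Ctss start. Across 32851 such windows of the RefSeq table, 23.3% held GAGGAA on either strand. The table held windows for 6 of the 8 genes (Ctsc, Ctsd, Ctsk, Ctsl, Ctss and Ctsz). Besides Ctsk and Ctss, Ctsc had the letters at 2 places. The letters CACGTG, the core of the E-box bound by TFEB, a regulator of lysosomal genes, stood in 6.02% of all windows, in 2 of the 6 member windows (Ctsd and Ctsl) and 2 times in that of Ctsd. The Ctsl window (64370521 to 64370770, minus strand) lay wholly inside the GENCODE span of Ctsl, 64359337 to 64370890. The Ctsd window (142387828 to 142388077, minus strand) lay partly inside the GENCODE span of Ctsd, which ends at 142388038. These 2 windows are thus not wholly upstream of the annotated genes. A match of letters is a description of the window and not evidence of a bound site.

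Summed over the 8 genes, cathepsins took 1.95% ± 0.256 (SD, n = 7) of all UMIs of C1q macrophages. The mice ranged from 1.55 to 2.25%, above every sum of every other class. Other myeloid cells gave 0.599% ± 0.154, fibroblasts 0.417% ± 0.0644, tumor cells 0.257% ± 0.0421 and hormone-sensing cells 0.184% ± 0.0160 (n = 7 each). The mean was 0.188% ± 0.0408 in endothelial cells (n = 3) and 0.0855% ± 0.0269 in T/NK cells (n = 7). C1q macrophages held 8.69% of the kept UMIs of a mouse on average and 40.2% ± 11.1 of its cathepsin UMIs, while tumor cells held 42.2% and 29.2% ± 17.1. These shares depend on how many cells of each class the dissociation released, which is not known.

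**Figure D1:**
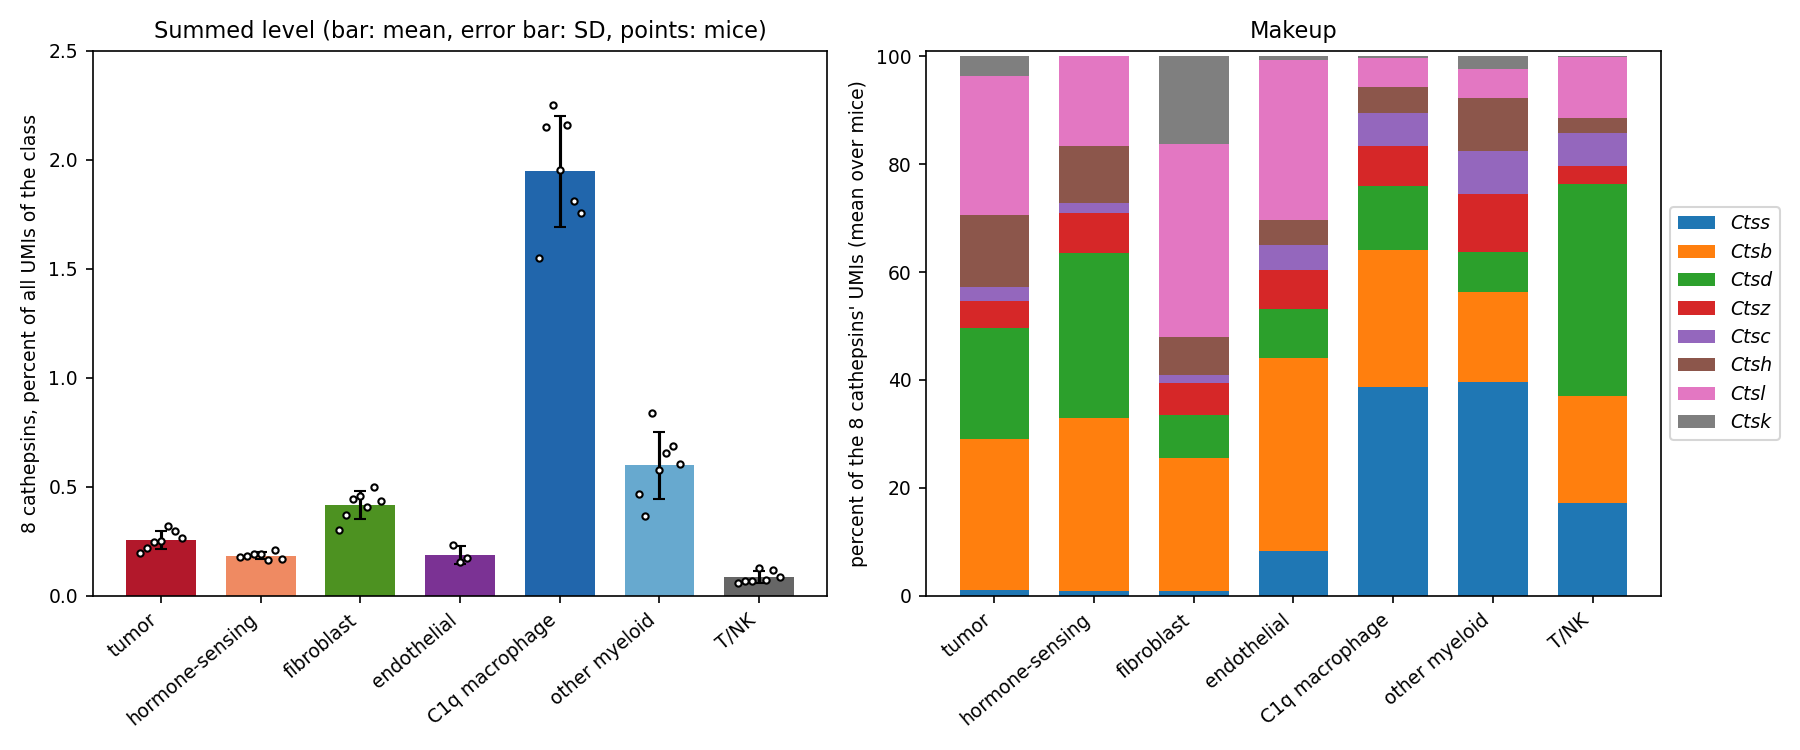
Left, the UMIs of the 8 cathepsins together as a percent of all UMIs of a class (bar, mean; error bar, SD; points, mice). C1q macrophages reached 1.95% on average, against 0.257% in tumor cells. Right, the percent of the cathepsin UMIs of a class that came from each gene, averaged over mice. Ctss made up 38.7% in C1q macrophages and 1.12% in tumor cells.

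The makeup also differed between classes. Ctss gave 38.7% ± 5.55 of cathepsin UMIs in C1q macrophages and 39.6% ± 6.97 in other myeloid cells, but 1.12% ± 0.711 in tumor cells. Ctsl gave 35.8% ± 6.11 in fibroblasts and 5.39% ± 1.16 in C1q macrophages, and Ctsk 16.2% ± 5.64 in fibroblasts. Each value is the mean and SD over 7 mice of the share of a gene within a class.

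The first question was which cathepsins distinguish macrophages from the tumor cells of the same mouse. In C1q macrophages, 7 of the 8 genes were higher than in tumor cells and none was lower, in a test across 5235 genes that called 27.0% of all genes higher and 26.7% lower. Ctss, which trims the invariant chain of MHC class II in antigen-presenting cells, had the largest difference of the 8. Ctsc, the dipeptidyl peptidase that activates granule serine proteases, and the carboxypeptidase Ctsz followed. The CB series alone gave 7 higher genes and the WT series 6, with none lower in either. Over all genes, in either direction, 2573 were called in the CB series and 1929 in the WT series, against 2815 with all mice. How many genes were tested in each series is not given here.

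**Figure D2:**
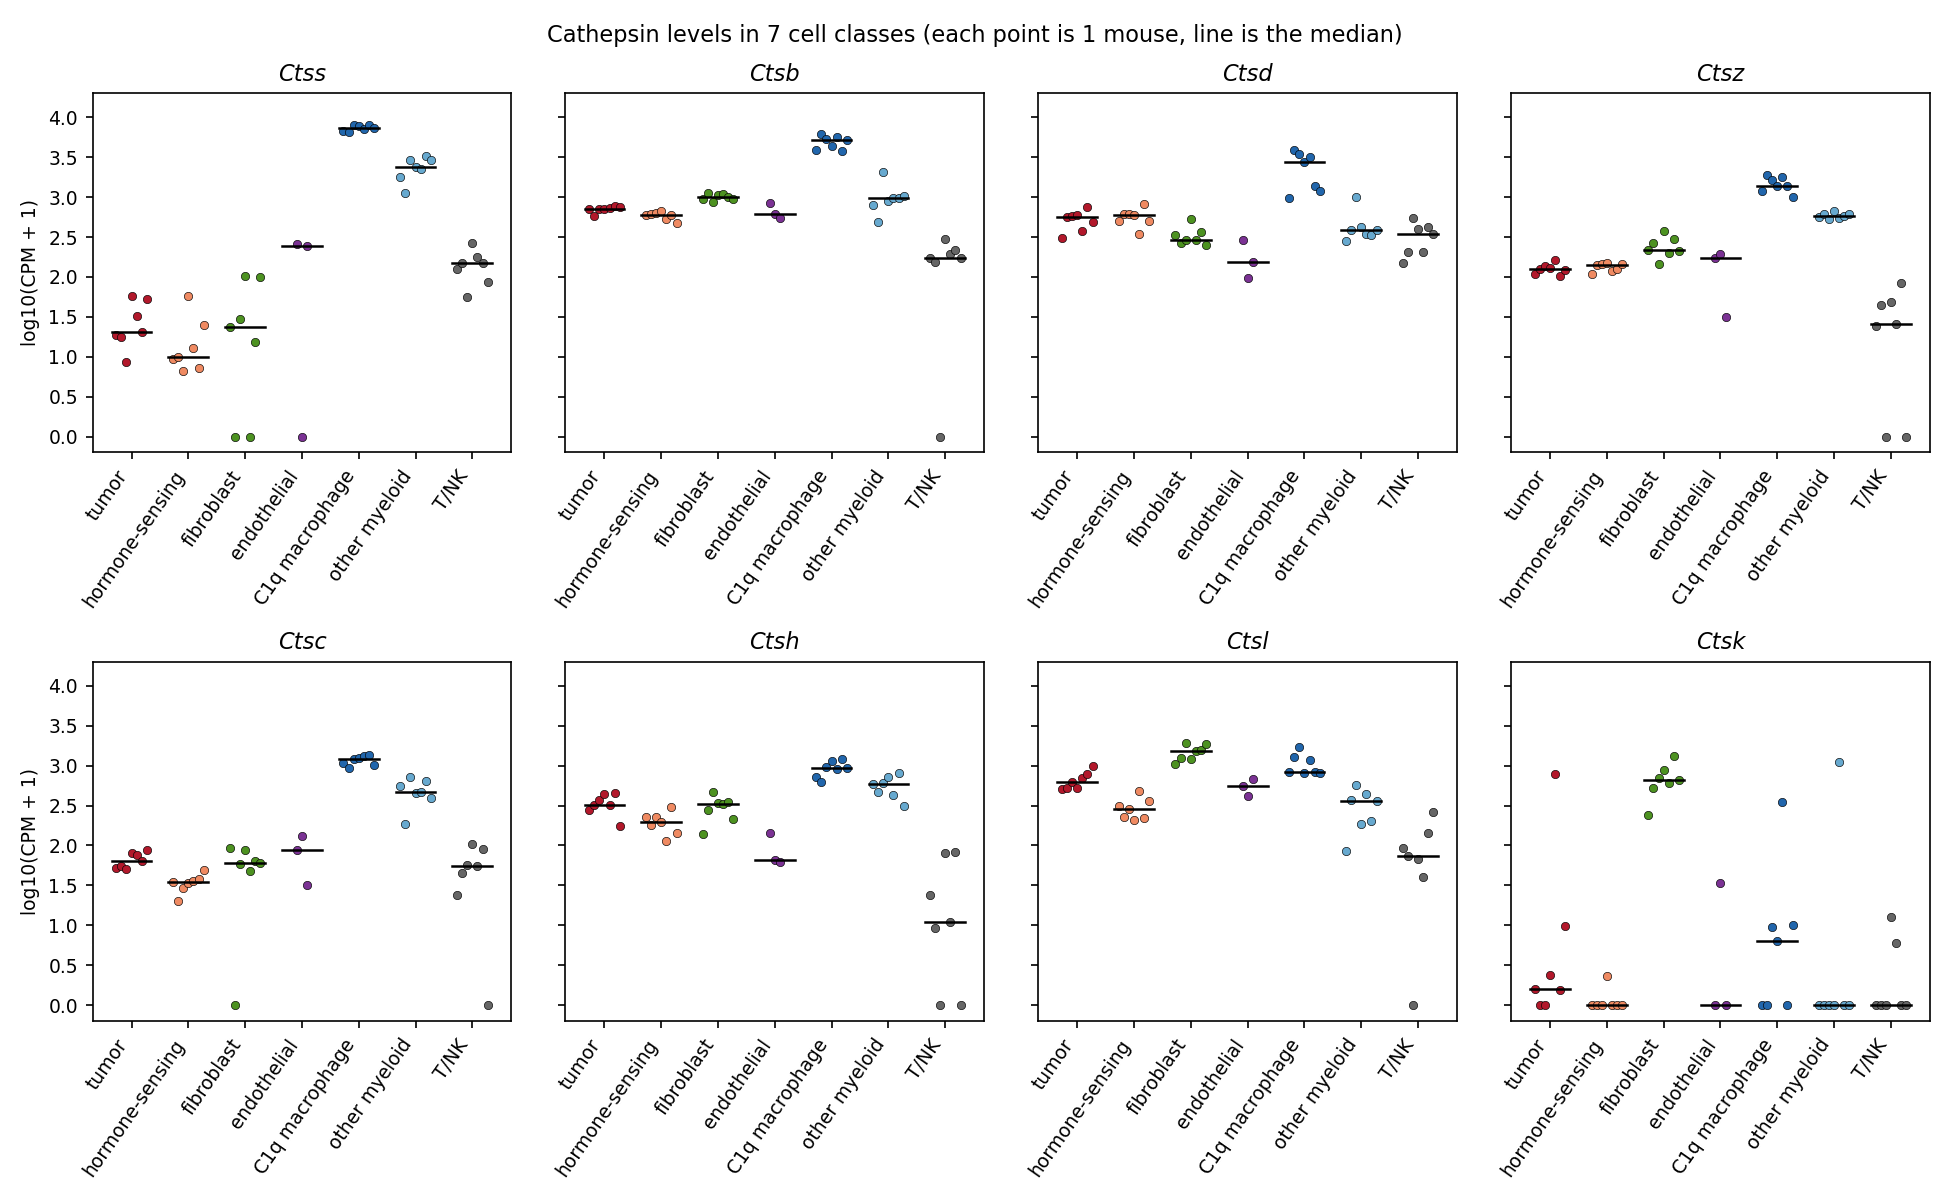
Level of each cathepsin as log10(CPM + 1) in 7 cell classes; each point is 1 mouse and the line is the median. Ctss ranged from 6582 to 8144 CPM in C1q macrophages and from 7.68 to 56.8 CPM in tumor cells, and Ctsk was highest in fibroblasts except in replicate 5.

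Ctss lay between 6582 and 8144 CPM in C1q macrophages (median 7358), and between 7.68 and 56.8 CPM in tumor cells (median 19.1). The 7 mice did not overlap, and the fitted log2 fold change was 8.44 ± 0.32 (SE), with an adjusted p of 5.57e-31 by the quasi-likelihood test of edgeR. A Ctss UMI was found in 91.5% of 1869 C1q macrophages and in 2.86% of 5482 tumor cells, at median depths of 551 and 665 UMIs. The shares expected if each cell were thinned to 300 UMIs, computed from the hypergeometric distribution and leaving out 125 and 594 shallower cells, were 83.4% and 1.16%. In T/NK cells, a class not known for presenting antigen, the share was 8.51%, or 5.53% after thinning (median depth 419 UMIs, 431 cells left out), so the tumor share stood below the T/NK share.

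Ctsc had 944 to 1374 CPM in C1q macrophages (median 1218) and 49.9 to 87.2 CPM in tumor cells (median 62.8). Every macrophage value exceeded every tumor value, and the log2 fold change was 4.45 ± 0.17 (adjusted p = 2.69e-30, edgeR). Ctsz ran from 991 to 1911 CPM (median 1397) against 103 to 163 CPM (median 125), also without overlap (3.77 ± 0.17, adjusted p = 3.55e-27, edgeR). Ctsb, an endopeptidase that also removes dipeptides from the carboxyl end of proteins, ran from 3757 to 6268 CPM (median 5230) against 581 to 768 CPM (median 720). That difference was 3.03 ± 0.18 on the log2 scale (adjusted p = 8.96e-22, edgeR), again with all 7 mice apart.

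Ctsd, the aspartic protease, differed by 2.42 ± 0.20 on the log2 scale (adjusted p = 8.54e-16, edgeR), but its levels in C1q macrophages were uneven. Replicates 1, 8 and 7 had 981, 1192 and 1371 CPM, and the other 4 mice 2764 to 3879 CPM. Tumor cells had 310 to 758 CPM, so that even the lowest macrophage value lay above them. A Ctsd UMI was found in 36.3% of C1q macrophages and 34.2% of tumor cells, or 24.8% and 14.1% after thinning. Ctsh, an aminopeptidase, ran from 629 to 1229 CPM in C1q macrophages and from 174 to 453 CPM in tumor cells (1.70 ± 0.17, adjusted p = 8.27e-13, edgeR). Ctsl, an endopeptidase that nearly all cell types use, had the smallest of the 7 differences, 0.91 ± 0.19 (adjusted p = 2.83e-05, edgeR). Its levels were 798 to 1704 CPM against 508 to 985 CPM, with overlap, and it was higher in 6 of 7 mice. The share of cells with a Ctsl UMI did not follow the level, with 27.6% of C1q macrophages and 35.6% of tumor cells, or 15.3% and 15.5% after thinning. Ctsl lost the call in 5 settings. It had 0.19 with 9 principal components and resolution 0.6 (adjusted p = 0.418), 0.31 without mixed barcodes (adjusted p = 0.187), 0.37 when each barcode was assigned by its own marker UMIs (adjusted p = 0.310) and 0.38 in the WT series alone (adjusted p = 0.384, all edgeR). The exact sign-flip test over mice gave a mean difference of 0.65 (adjusted p = 0.0729).

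Ctsk did not pass the test between C1q macrophages and tumor cells (−0.09 ± 0.80), and other settings called it in both directions. It was called lower with 9 principal components and resolution 0.6 (−5.16, adjusted p = 0.0186) and without mixed barcodes (−3.90, adjusted p = 0.00557). It was called higher with at least 500 genes per barcode (4.79, adjusted p = 0.000499) and without replicate 5 (1.92, adjusted p = 0.0430, all edgeR). Without the 4 barcodes of replicate 5 it had 6 UMIs among 1411431 in C1q macrophages and 17 among 7088714 in tumor cells.

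**Figure D3:**
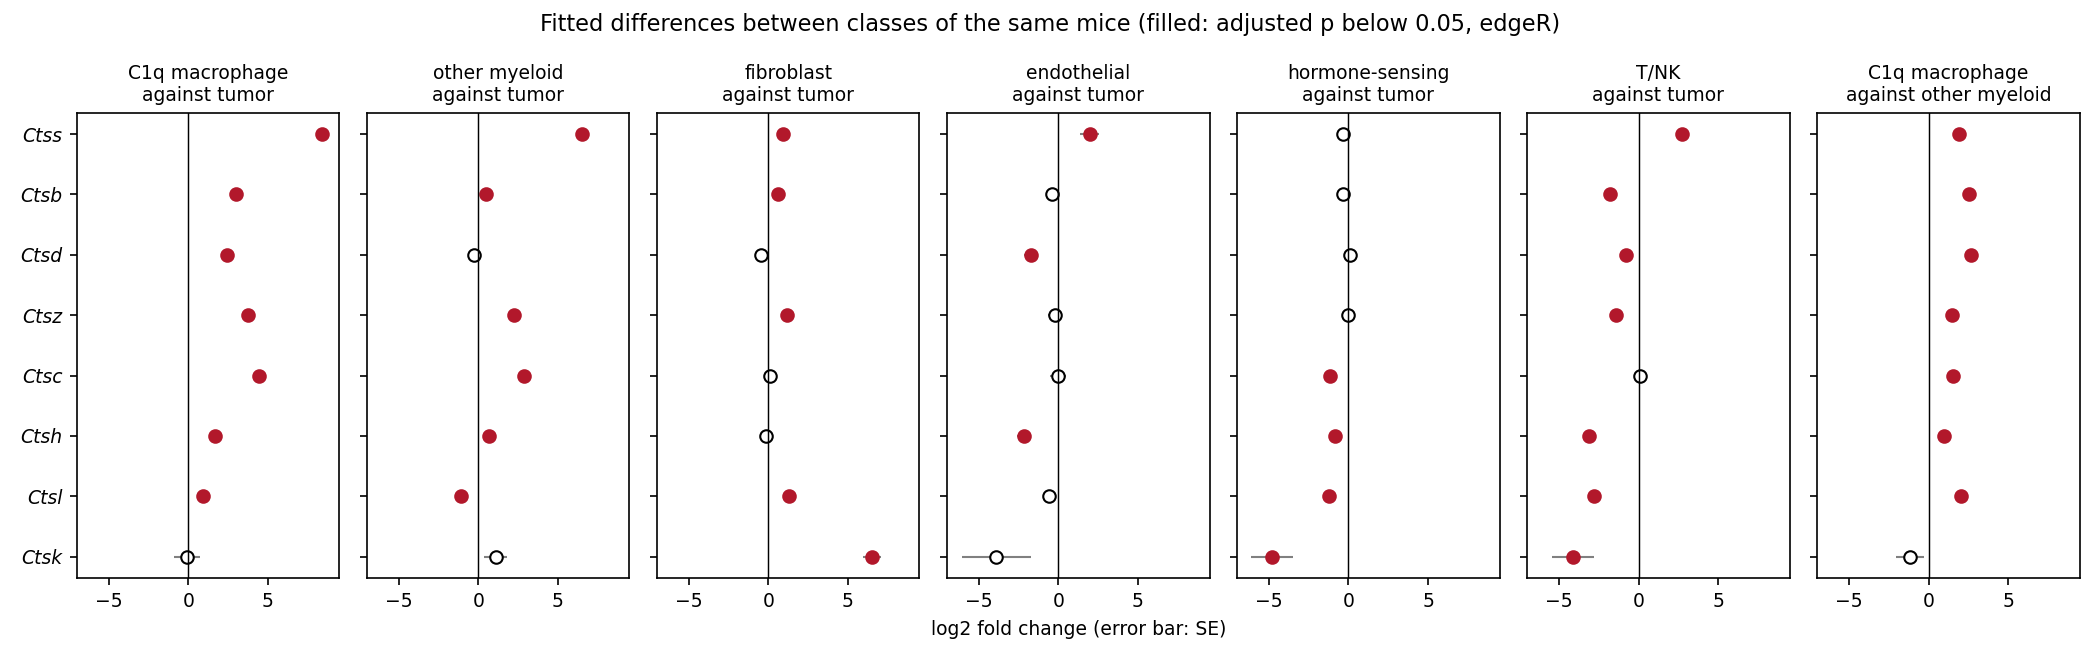
Log2 fold change of each cathepsin in the 7 comparisons between classes of the same mice (error bar, SE; filled points have an adjusted p below 0.05 in edgeR). Filled points lie right of 0 for 7 genes in C1q macrophages against tumor cells and for 7 in C1q macrophages against other myeloid cells, and left of 0 for 6 genes in T/NK cells. The Ctsk points against tumor cells include the barcodes with 510 and 106 UMIs.

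The same macrophages were then set against the other myeloid cells, a monocyte-like cluster led by Retnla, Alox5ap, Napsa, Ccr2 and Cfp. The name was a narrow choice, since the cluster averaged 5.02 over the monocyte markers and 4.47 over the dendritic cell markers (log2 level above the median cluster). Ccr2 was the 1 monocyte marker among its 10 leading genes, and H2-Ab1, an MHC class II gene, averaged 12018 ± 2794 CPM there and 13901 ± 3850 CPM in macrophage cluster 1 (SD, n = 7). The same 7 genes were higher in C1q macrophages and none was lower, where 8.88% of all genes were called higher and 4.89% lower. Both title series alone gave 7 higher genes, where 480 (CB) and 263 (WT) of all genes were called in either direction, against 721 with all mice. The differences were 2.70 ± 0.23 for Ctsd, 2.54 ± 0.19 for Ctsb, 2.02 ± 0.23 for Ctsl, 1.94 ± 0.24 for Ctss, 1.56 ± 0.17 for Ctsc, 1.50 ± 0.17 for Ctsz and 0.998 ± 0.191 for Ctsh (log2 fold change ± SE), each with an adjusted p of 5.83e-05 or less (edgeR). Each of the 7 was higher in 7 of 7 mice.

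In other myeloid cells Ctss lay between 1129 and 3324 CPM (median 2423), below all 7 macrophage values. Ctsb lay between 484 and 2048 CPM (median 969), and Ctsl between 83.7 and 575 CPM (median 358), also below all 7. For Ctsd the 2 classes overlapped across mice, because replicate 3 reached 1006 CPM in other myeloid cells while replicate 1 had 981 CPM in C1q macrophages. Assigning each barcode by its own marker UMIs, in place of clusters, turned Ctsd to −0.99 (adjusted p = 0.00492) and Ctsl to −0.33 (adjusted p = 0.651), and Ctsb to 0.28 (adjusted p = 0.438). Under that rule 366 of the 1019 barcodes taken as other myeloid lay in the C1q macrophage clusters. Under that assignment Ctsd was thus called lower in C1q macrophages, opposite to its call on clusters, and Ctsl and Ctsb were not called.

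Against tumor cells, other myeloid cells were higher for 5 of the 8 genes and lower for 1, beside 22.0% and 24.5% of all genes called higher and lower. The CB series gave 4 higher and 1 lower and the WT series 3 and 1. Over all genes they called 2084 and 1606 in either direction, against 2432 with all mice. Ctss was higher by 6.50 ± 0.30 (adjusted p = 1.73e-26), Ctsc by 2.89 ± 0.19 (adjusted p = 1.00e-19), Ctsz by 2.27 ± 0.18 (adjusted p = 3.76e-16) and Ctsh by 0.70 ± 0.19 (adjusted p = 0.00188, all edgeR). The mice did not overlap for the 3 largest of these. Ctsh lost the call with at least 500 genes per barcode (0.40, adjusted p = 0.165), with no filter on low counts (0.41, adjusted p = 0.276) and in the WT series alone (0.64, adjusted p = 0.133). Ctsl was the gene that was lower, by −1.11 ± 0.22 (adjusted p = 2.94e-05), and it was lower in 7 of 7 mice. Ctsl lost the call with at least 500 genes (−0.42, adjusted p = 0.223). With each barcode assigned by its own markers, Ctsl was instead called higher (0.69, adjusted p = 0.0456), and Ctsd, which had not passed the test (−0.28 ± 0.23), was called higher too (2.40, adjusted p = 7.79e-12, both edgeR). Ctsb rested on a narrow margin (0.49 ± 0.18, adjusted p = 0.0241): leaving out any of replicates 1, 3, 4, 5 or 8 gave 0.33 to 0.47 with adjusted p values of 0.0680 to 0.127, and leaving out the 4 barcodes rich in Ctsk gave 0.42 (adjusted p = 0.0619). The call was also lost in 6 other settings, with the smallest value, 0.23, under no filter on low counts (adjusted p = 0.6254).

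Fibroblasts were set against tumor cells to ask which cathepsins belong to the stroma. They were higher for 5 of the 8 genes and lower for none, beside 25.0% of all genes called higher and 25.1% lower. Ctsk stood far above the rest. Each series alone gave 3 higher genes, and the set without mixed barcodes gave 2, Ctsk and Ctsl, with 65.6% of the fibroblasts left out. Over all genes these settings called 2403 (CB), 1604 (WT) and 1078 in either direction, against 2627 in the main fit.

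Ctsk lay between 240 and 1322 CPM in fibroblasts (median 670). In tumor cells it was 0 to 8.72 CPM in 6 mice and 796 CPM in replicate 5, mostly from the barcodes with 510 and 106 UMIs. With all barcodes the log2 fold change was 6.51 ± 0.59 (adjusted p = 1.25e-14), and without the 4 it was 8.03 ± 0.33 (adjusted p = 5.64e-30, both edgeR). The 4 were chosen by their Ctsk UMIs, so the larger difference and smaller p value follow from that choice and are no added support. Without the 4, Ctsk had 17 UMIs in tumor cells and 801 in fibroblasts. It thus passed the filter on low counts through fibroblasts, which left little room for the other direction. The exact sign-flip test over mice with all barcodes gave a p of 0.03125 and an adjusted p of 0.0530. That adjustment ran over 56 tests, among them endothelial tests of 3 mice that could not go below 0.25. A Ctsk UMI was present in 39.8% of fibroblasts and in 0.237% of tumor cells, or 19.2% and 0.106% after thinning. No fibroblast was among the 4 barcodes, and replicate 5 had 598 CPM in its fibroblasts, within the range of the other mice.

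**Figure D4:**
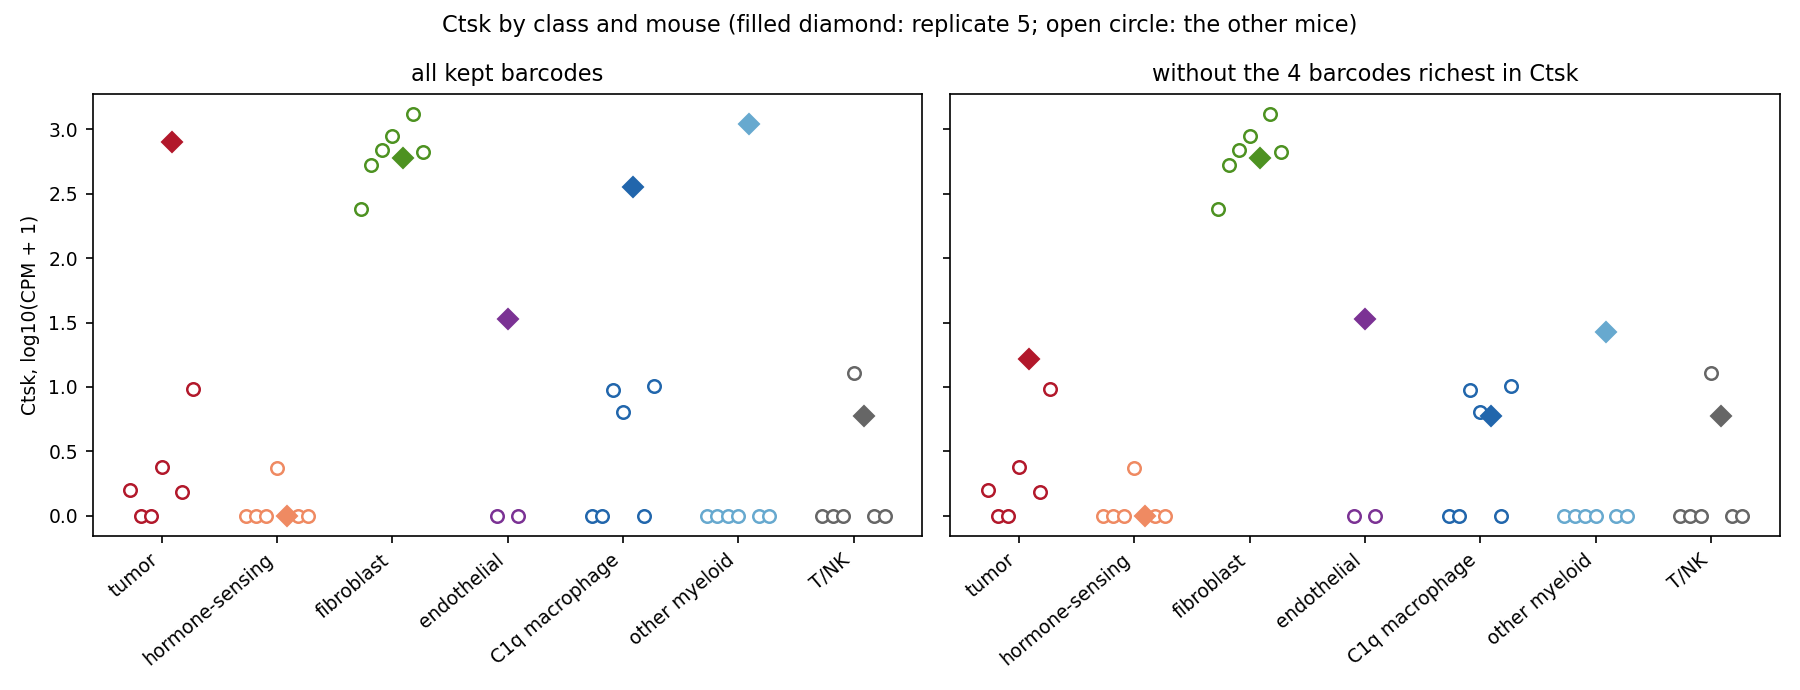
Ctsk as log10(CPM + 1) by class and mouse, with all kept barcodes (left) and without the 4 barcodes that hold 50 or more Ctsk UMIs (right). In replicate 5 (diamonds) the tumor class goes from 796 to 15.6 CPM, C1q macrophages from 354 to 4.96 CPM and other myeloid cells from 1107 to 25.9 CPM, and fibroblasts stay at 598 CPM.

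Ctsl ran from 1042 to 1912 CPM in fibroblasts (median 1536), above all 7 tumor values (1.29 ± 0.19, adjusted p = 2.80e-08). Ctsz had 145 to 375 CPM (1.17 ± 0.19, adjusted p = 3.31e-07) and was higher in 7 of 7 mice, with overlap between the classes. Without mixed barcodes Ctsz was 0.49 (adjusted p = 0.205). Ctsb had 869 to 1138 CPM, above all tumor values, but by 0.64 ± 0.18 only (adjusted p = 0.00219, all edgeR). Ctsb lost the call in the CB series (0.58, adjusted p = 0.0725), in the WT series (0.68, adjusted p = 0.0624), without mixed barcodes (0.37, adjusted p = 0.144) and with no filter (0.40, adjusted p = 0.118). Ctss passed narrowly (0.93 ± 0.39, adjusted p = 0.0423) on 60 UMIs, and was listed at 0 in 2 of 7 mice. It lost the call without replicate 1, 3, 4 or 8 (0.84, 0.85, 0.85 and 0.37). The call was also lost in each title series alone, in DESeq2 and with at least 500 genes. With no filter, no replicate block or the 2 classes alone it was lost as well. Ctss changed sign without mixed barcodes (−0.34, adjusted p = 0.726), under per-barcode assignment (−0.45) and by the sign-flip test (−0.81). Fibroblasts held 0.571 Ctss UMIs per C1q UMI, against 0.523 in C1q macrophages and 0.635 in barcodes under 200 genes. The part of macrophage RNA in the fibroblast value of Ctss was not tested.

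Hormone-sensing cells are mammary epithelium that carries receptors for steroid hormones and prolactin. They were lower than tumor cells for 4 of the 8 genes and higher for none, beside 16.0% of all genes called lower and 15.2% higher. Each series alone gave 3 lower genes, where 1621 (CB) and 511 (WT) of all genes were called in either direction, against 1636 with all mice. Ctsl had 206 to 481 CPM against 508 to 985 CPM, without overlap (−1.23 ± 0.20, adjusted p = 7.86e-07). Ctsc had 19.4 to 47.9 CPM against 49.9 to 87.2 CPM, again without overlap (−1.14 ± 0.23, adjusted p = 7.83e-05), and Ctsh was lower in 7 of 7 mice (−0.87 ± 0.19, adjusted p = 0.000150, all edgeR). In none of the 7 mice was Ctsc of either class above its level among barcodes with fewer than 200 genes (171 ± 87.7 CPM; SD, n = 7), and in the WT series alone the call was lost (−1.12, adjusted p = 0.117). The fourth gene, Ctsk (−4.82 ± 1.31, adjusted p = 0.00266), had 2 UMIs in hormone-sensing cells, and its call rested on the tumor cells of replicate 5. Without the 4 barcodes it was −1.53 ± 0.90 (adjusted p = 0.207), and without replicate 5 −0.29 (adjusted p = 0.886). Ctsb, Ctsd, Ctss and Ctsz did not pass the test, with mean levels of 589 ± 63.4, 570.0 ± 144, 17.4 ± 18.5 and 133 ± 15.7 CPM (SD, n = 7) in hormone-sensing cells and 709 ± 61.7, 523 ± 149, 28.9 ± 18.9 and 127 ± 20.1 CPM in tumor cells.

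T/NK cells had the lowest summed level. They were lower than tumor cells for 6 of the 8 genes and higher for 1, beside 28.8% of all genes called lower and 27.1% higher. The CB series gave 5 lower and 1 higher and the WT series 6 and 1. Over all genes they called 2797 and 1812 in either direction, against 2929 with all mice. Ctsh had 52 UMIs in 2209 T/NK cells (0 to 83.0 CPM, −3.12 ± 0.25, adjusted p = 3.75e-16) and Ctsl 106 UMIs (0 to 260 CPM, −2.81 ± 0.24, adjusted p = 3.16e-15). Ctsb differed by −1.80 ± 0.20 (adjusted p = 3.62e-11), Ctsz by −1.41 ± 0.24 (adjusted p = 1.09e-06) and Ctsd by −0.82 ± 0.22 (adjusted p = 0.00145, all edgeR). The classes did not overlap across mice for Ctsb, Ctsh, Ctsl and Ctsz, and the share of all genes without overlap is not given here. The T/NK sums of replicates 3 and 8 held only 18087 and 11541 UMIs, where 3 UMIs equal 166 and 260 CPM. Both levels lie above all tumor values of Ctsz (103 to 163 CPM). The second also lies above the lowest tumor value of Ctsh (174 CPM).

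Ctsk was the sixth of these and again rested on replicate 5. Its value was −4.13 ± 1.33 (adjusted p = 0.00676, edgeR) with all barcodes, 0.23 ± 0.81 (adjusted p = 0.823) without the 4 barcodes and 1.41 (adjusted p = 0.197) without replicate 5. Ctss was higher in T/NK cells in 7 of 7 mice, with 55.3 to 269 CPM against 7.68 to 56.8 CPM (2.76 ± 0.31, adjusted p = 3.26e-11, edgeR). It had 217 UMIs there, and the values of replicates 3 and 8 (55.3 and 86.6 CPM) were 1 UMI each. T/NK cells held 1.75 Ctss UMIs per C1q UMI, where C1q macrophages held 0.523 and other myeloid cells 1.74. In each of the 7 mice, Ctss of T/NK cells and of tumor cells was below its level among barcodes with fewer than 200 genes.

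Barcodes with fewer than 200 genes, which can hold free RNA and small or broken cells, set a level against which low values can be read. They contained 1011 ± 581 CPM of Ctss, 850.0 ± 197 of Ctsb, 449 ± 153 of Ctsd and 46.4 ± 52.5 of Ctsk (SD, n = 7). C1q macrophages lay above this level in 7 of 7 mice for each gene but Ctsk, and fibroblasts did so for Ctsk and Ctsl. Fibroblasts lay above it in 5 mice for Ctsb and Ctsh, in 4 for Ctsz, in 1 for Ctsd and in none for Ctsc and Ctss. Other myeloid cells did so in 7 mice for Ctsc, Ctsh, Ctss and Ctsz, in 5 for Ctsb, in 3 for Ctsd and Ctsl and in 1 for Ctsk. Tumor cells lay above it in 7 of 7 mice for Ctsl, in 5 for Ctsd and Ctsh, in 2 for Ctsb, in 1 for Ctsk and in none for Ctsc, Ctss and Ctsz. Hormone-sensing cells did so in 5 mice for Ctsd, in 3 for Ctsh, in 1 for Ctsl and in none for the other 5 genes. T/NK cells did so in 2 mice for Ctsd and in none for the other 7 genes, and endothelial cells in 3 of 3 mice for Ctsl and in none for the other 7.

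Endothelial cells allowed a comparison in 3 mice, with 98284 UMIs in all. They were lower than tumor cells for 2 of the 8 genes and higher for 1, beside 11.5% and 11.0% of all genes called lower and higher. Ctsh had 9 UMIs (61.0, 64.9 and 144 CPM, −2.15 ± 0.46, adjusted p = 0.000263) and Ctsd 18 UMIs (97.3, 153 and 288 CPM, −1.75 ± 0.43, adjusted p = 0.00169, both edgeR). All 3 mice were lower for both genes, and Ctsd lost the call in the CB series (−1.49, adjusted p = 0.119). Ctss was called higher (1.96 ± 0.62, adjusted p = 0.0161) on 17 UMIs, with 0, 244 and 260 CPM. It lost the call without replicate 4 (1.78, adjusted p = 0.140), without replicate 8 (1.44, adjusted p = 0.212) and in 7 other settings. The CB series held 1 endothelial sum. The WT series gave 2 lower genes, where 585 of all genes were called in either direction, against 1176 with all mice.

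Taking the classes in order of mean level, C1q macrophages came top for Ctsb, Ctsc, Ctsd, Ctsh, Ctss and Ctsz, and each of these 6 differed from the next class (adjusted p of 5.83e-05 or less, edgeR). For Ctsl fibroblasts and C1q macrophages were the top pair (1490 ± 335 and 1063 ± 345 CPM), whose difference did not pass the test (0.38 ± 0.19 on the log2 scale, adjusted p = 0.0996, edgeR). For Ctsk fibroblasts were top (705 ± 335 CPM). T/NK cells had the lowest mean of Ctsb, Ctsh, Ctsl and Ctsz, hormone-sensing cells of Ctsc, Ctsk and Ctss, and endothelial cells of Ctsd. In the middle of the order, Ctsd did not differ between neighbours from hormone-sensing (570.0 ± 144 CPM) through tumor, other myeloid, fibroblast and T/NK cells to endothelial cells (179 ± 98.4 CPM). A p value above the threshold does not show that such neighbours are equal.

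Within the tumor class, Ctsl, Ctsc, Ctsd and Ctsb varied between the 5 clusters, described here without a test because the clusters were made from these cells. The tested classes were made from the same cells too, so their p values also take the grouping as given. The cathepsins were kept out of the variable genes used for that grouping. Ctsl averaged 1045 ± 302 CPM in cluster 4, led by Saa1, Saa2, Npy, Spp1 and Slpi, and 465 ± 140 CPM in cluster 3, led by Car6, Scgb2b27, Thrsp, Emid1 and Lalba (SD, n = 7). Ctsc averaged 126 ± 44.9 and 39.8 ± 11.5 CPM in the same clusters. There Ctsd averaged 698 ± 127 and 394 ± 107 CPM, and Ctsb 863 ± 106 and 622 ± 92.5 CPM. Ctsz went the other way, with 87.5 ± 33.8 CPM in cluster 4 and 164 ± 28.0 CPM in cluster 3. Ctsh was highest in cluster 11 (463 ± 132 CPM, n = 6), which is led by the interferon-induced genes Ifit3, Rsad2, Ifit1, Isg15 and Phf11d.

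The C1q macrophages comprised cluster 1, led by Ms4a7, C1qc, H2-M2, C1qb and C1qa, and the smaller cluster 16, led by Ccl8, Pf4, Mrc1, F13a1 and Folr2. Ctss averaged 8018 ± 598 CPM in cluster 1 (n = 7) and 3920 ± 1089 CPM in cluster 16 (n = 6), and Ctsz 1571 ± 337 and 667 ± 146 CPM. Ctsb (4858 ± 978 and 5215 ± 929 CPM) and Ctsc (1135 ± 171 and 1433 ± 293 CPM) did not follow that order.

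**Figure D5:**
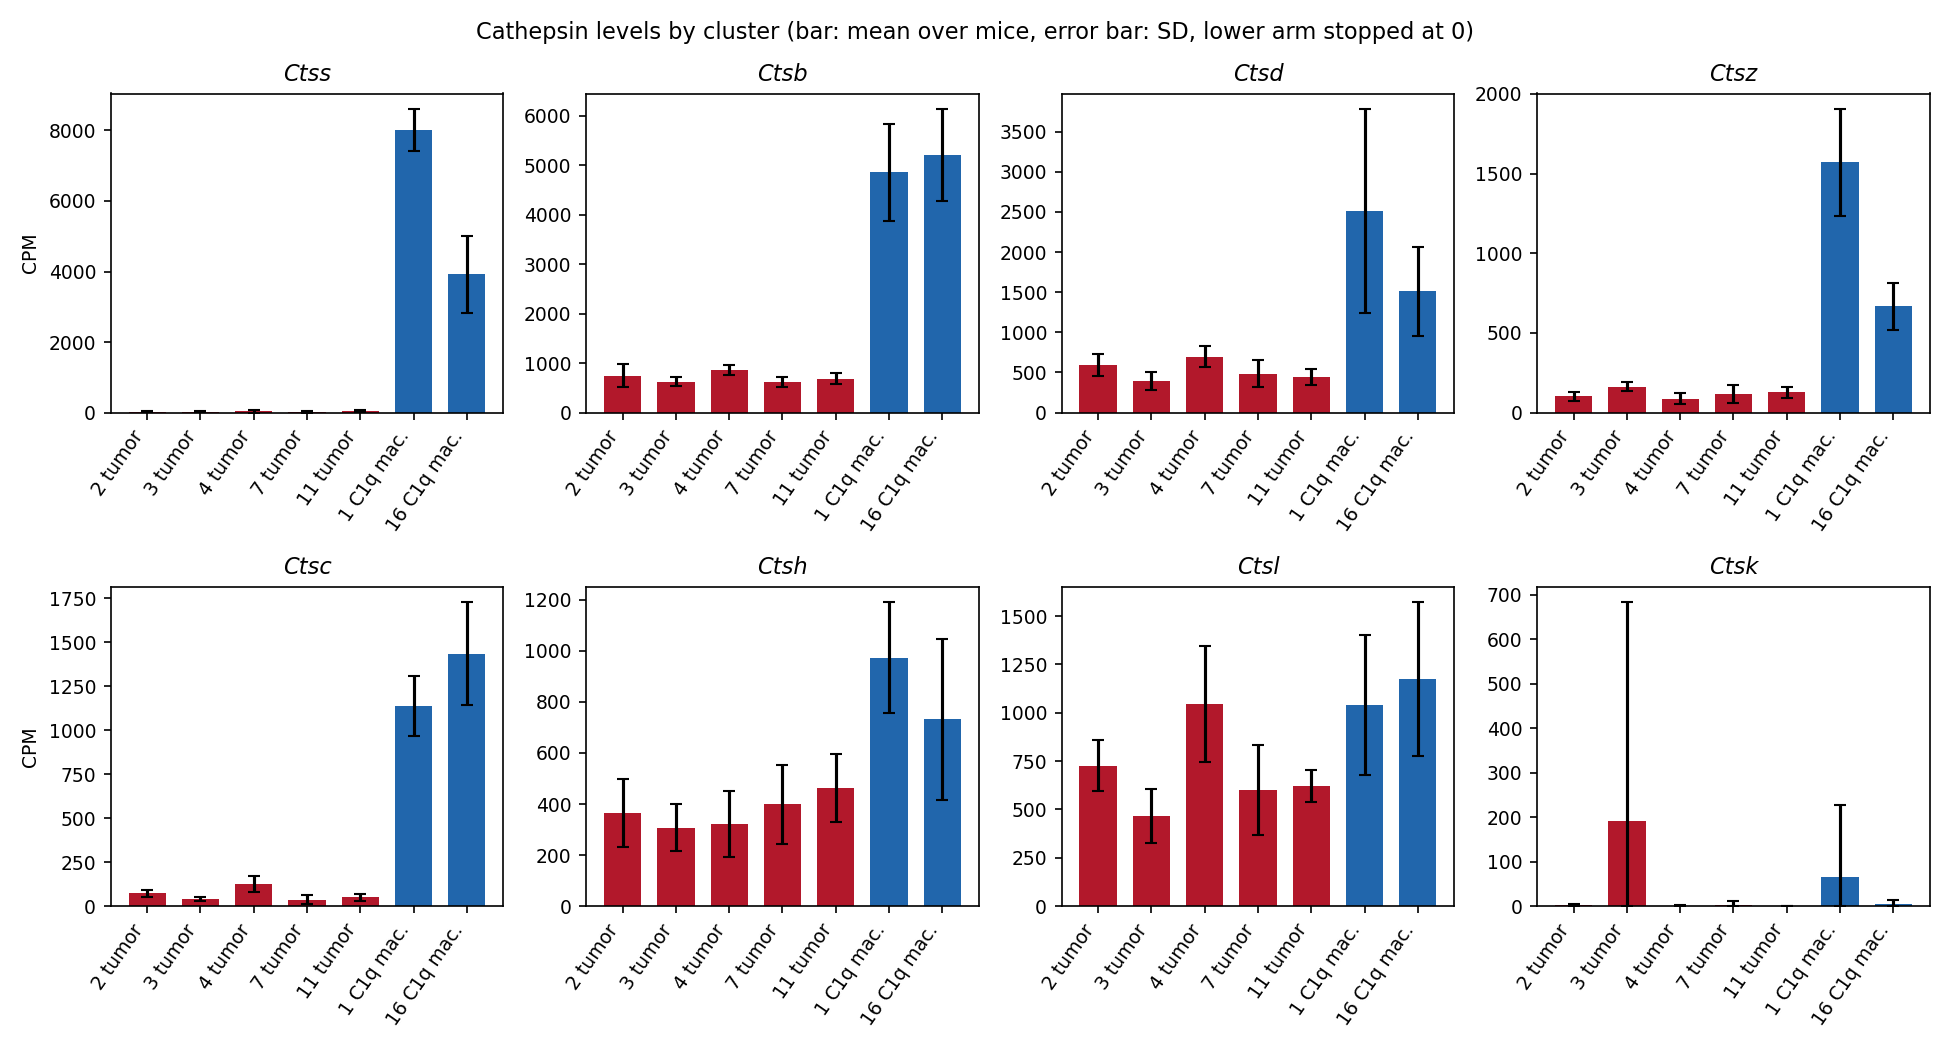
Mean CPM of each cathepsin in the 5 tumor clusters (red) and the 2 C1q macrophage clusters (blue); error bars are the SD over mice, cut at 0. Ctss was 8018 CPM in cluster 1 and 3920 CPM in cluster 16, and the Ctsk bars of clusters 3 and 1 include barcodes of replicate 5 with 510, 106 and 73 UMIs.

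Other genes of the lysosome were read from lists of 63 genes. Of the other cathepsins and lysosomal endopeptidases, 4 of 8 passed the filter on low counts, and 3 were higher in C1q macrophages than in tumor cells, beside 27.0% of all genes. These were Lgmn (legumain, which cleaves after asparagine; 6.43 ± 0.22, 1922 ± 245 against 24.8 ± 4.03 CPM), the carboxypeptidase Ctsa (3.41 ± 0.17) and the tripeptidyl peptidase Tpp1 (1.95 ± 0.19). Lgmn was also higher in fibroblasts (2.74 ± 0.24), in hormone-sensing cells (1.53 ± 0.24), in other myeloid cells (3.68 ± 0.24) and, between the myeloid classes, in C1q macrophages (2.75 ± 0.20). Ctsw, a cathepsin of cytotoxic lymphocytes, was the exception in T/NK cells, where it was higher by 7.04 ± 0.26 (561 ± 191 against 3.85 ± 3.06 CPM). So scarce in tumor cells, Ctsw passed the filter on low counts through other classes, which left little room for the other direction. All these differences had an adjusted p below 0.05 in edgeR, and errors are SE for differences and SD for levels (n = 7).

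Among the inhibitors, 3 of 11 passed the filter and all 3 were higher in C1q macrophages than in tumor cells, again beside 27.0% of all genes. Cst3, the secreted cystatin C, was higher by 2.68 ± 0.26, and Cst7, a cystatin of immune cells, by 3.91 ± 0.62 on 19 UMIs against 6, a call lost when each barcode was assigned by its own markers (1.30). With so few UMIs in both classes, Cst7 passed the filter through other classes, among them T/NK cells with 214 UMIs. Cstb, the cytosolic stefin B, was higher by 0.55 ± 0.15 and lost the call in 5 settings. Cst3 did not follow the proteases between the myeloid classes. It averaged 5910 ± 1082 CPM in C1q macrophages and 9819 ± 2973 CPM in other myeloid cells, and none of the 3 inhibitors passed the test there. Other myeloid cells were higher than tumor cells for Cst3 (3.20 ± 0.27) and Cst7 (4.22 ± 0.80, on 9 UMIs against 6, with 0 in 3 of 7 mice), and T/NK cells for Cst7 (7.39 ± 0.43, 214 UMIs), while Cstb (−1.38 ± 0.18) and Cst3 (−1.04 ± 0.27) were lower in T/NK cells. The call of Cst3 in T/NK cells was lost with at least 500 genes per barcode (−0.44, adjusted p = 0.311) and in the WT series (−0.89, adjusted p = 0.0666), and that of Cst7 in other myeloid cells in the same settings (2.16, adjusted p = 0.131, and 3.30, adjusted p = 0.0504). Hormone-sensing cells had less Cst3 (−1.67 ± 0.27). Fibroblasts had less Cstb (−0.52 ± 0.16), a call lost in 7 settings, among them both title series alone and DESeq2 (−0.23, adjusted p = 0.268).

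Of the genes that deliver hydrolases to the lysosome, 6 of 9 were tested, and 4 were higher and 1 lower in C1q macrophages than in tumor cells, beside 27.0% and 26.7% of all genes. Psap (the saposin precursor, 2.93 ± 0.16), Grn (progranulin, 2.92 ± 0.17) and Scarb2 (receptor of glucocerebrosidase, 1.53 ± 0.21) were among the higher genes. Igf2r, the large mannose 6-phosphate receptor, was the lower one (−1.57 ± 0.47, with 14 UMIs in C1q macrophages and no call in the CB series alone), and was higher in fibroblasts than in tumor cells (1.48 ± 0.32), without a call in the WT series alone (1.09, adjusted p = 0.0791). Of the other hydrolases and lipid-handling genes, 10 of the 13 tested were higher in C1q macrophages and none lower (median log2 fold change 2.85, against −0.07 over all genes), among them Hexa (4.86 ± 0.22), Man2b1 (3.73 ± 0.20) and Gusb (3.68 ± 0.20). Of the membrane and acidification genes, 8 of the 11 tested were higher and 1 lower (median 1.23), with Laptm5 (7.04 ± 0.27), Cd68 (6.19 ± 0.29), Cd63 (2.34 ± 0.20) and Lamp1 (1.69 ± 0.16) the largest.

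In T/NK cells the hydrolase list had 1 gene higher and 6 lower of 13 tested, and the membrane list 1 higher (Laptm5, 6.28 ± 0.27) and 6 lower of 11, beside 27.1% of all genes higher and 28.8% lower. In hormone-sensing cells the hydrolase list had 2 of 13 higher and 4 lower, beside 15.2% and 16.0% of all genes, so that the higher count was near the share over all genes. Lipa, the acid lipase, was lower there (−2.64 ± 0.24). Asah1, the acid ceramidase, was higher (1.06 ± 0.22) with all 7 mice but had 0.10 in the WT series alone (adjusted p = 0.954). In fibroblasts 10 of 13 hydrolases were higher and 2 lower, beside 25.0% and 25.1% of all genes, with Hexa (3.34 ± 0.24) the largest. Against other myeloid cells, C1q macrophages were higher for 11 of 13 hydrolases and 7 of 11 membrane genes and lower for none, beside 8.88% of all genes higher and 4.89% lower, and Cd63 (2.78 ± 0.23) was among the higher genes. None of the 4 regulators (Tfeb, Tfe3, Mitf and Tfec) had enough counts to be tested.

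Over the 45 sums of mouse and class, the genes most like each member were ranked by Pearson's r of log2(CPM + 10) among 6386 genes. These are descriptions, since sums of 1 mouse share a library and the classes fix much of the pattern. Ctss was closest to Itgax (r = 0.97), Aif1 (0.96) and C1qb (0.95), Ctsz to Psap (0.94), Grn (0.92) and Ctsa (0.90), and Ctsc to Csf1r, Slc11a1 and Cd300c2 (each 0.93). Ctsb and Ctsh were both closest to Grn (each 0.90), followed by Ctsz. Ctsk was closest to P3h3 (0.84), Gxylt2 (0.83) and Abca8a (0.82), Ctsl to Pdia6, Cd63 and Cxcl1 (0.80 to 0.81), and Ctsd to Folr2 (0.78), Gdf3 and Lpcat2 (each 0.77). Between members, r ran from 0.89 for Ctsh with Ctsz to −0.18 for the neighbours Ctsk and Ctss.

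Counts of 4 members may include reads of other transcripts, since the counting strand is not given in the sources used here. In GENCODE M21, exons of Ctsb (chromosome 14), Ctsz (chromosome 2) and Ctsl (chromosome 13) overlap Fdft1, Nelfcd and the antisense gene Gm47123 on the other strand. Ctsd (chromosome 7) overlaps Gm49369 and Ctsl the processed pseudogene Gm49230 on the same strand. For Ctsc, Ctsh, Ctsk and Ctss no exon overlap was annotated.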

How the data were processed

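The deposited files hold UMI counts per gene and barcode for 7 tumors, 1 matrix per mouse, with whole-number counts that the authors did not normalize. The study's methods name alignment to the mouse genome mm10 with the PyMT sequence added and no aligner, while the submitters' processing notes list STAR, FastQC and the human builds GRCh37.p13 and hg19. The counting program, annotation and strand are not given in the sources used here. Mitochondrial rows were dropped, since most matrices held none, and barcodes with 200 to 6000 genes were kept.

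Counts were scaled to 10000 per barcode, 583 variable genes (mean 0.1 to 8, dispersion above 1) were used without the cathepsins and listed genes, and cells were clustered with Seurat 5.3.0 (20 principal components, resolution 1.0). Clusters were named from marker lists. Counts were summed per mouse and class (10 or more cells) and tested in edgeR 4.0.16 (R 4.3.3) by the quasi-likelihood test with TMM scaling, filterByExpr and the mouse as a block, adjusted by Benjamini-Hochberg over 5235 genes at a threshold of 0.05. The block rests on classes coming from the same animal: deviations of classes of 1 mouse correlated at 0.0614 to 0.610 (median 0.258, 123 of 123 pairs above 0). Between classes of different mice the correlation was −0.317 to 0.354 (median −0.0403, 188 of 738 pairs above 0), so the ranges overlap. Classes of 1 mouse also share a library and its free RNA, which these values do not separate from the animal. The SE of a fold change in edgeR is its absolute value divided by the square root of the F statistic of the test. The filter on low counts ran over the sums of all classes, so a gene scarce in 1 class could pass through another. The fit was also run on simulated counts, and the outcome is not reported here.

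The 8 members and the gene lists were chosen with earlier results of these data known. Genes named from the lists are those called with the largest fold changes, at most 4 per list and comparison, and the 3 genes most like each member are named by Pearson's r. Shares and levels carry counting error as well as the spread between mice. Other class rules, filters, scalings, DESeq2 1.42.0, single title series, omission of each replicate and an exact sign-flip test over mice were tried. Leaving out the 4 barcodes with 50 or more Ctsk UMIs and sums of 5 or more cells were added after seeing the data. Some items of the lists and labels are not reported here.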

Additional observations from a re-analysis of the deposited data

Results flagged for a closer look

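For each gene and class with 7 mice, the highest and the lowest mouse were set against the nearest of the others by the gap over the range, by Dixon's test at the 95% level. Chance flags about 1 in 20 groups of normally distributed values, and 10 of the 48 groups of 7 mice were flagged here. That rate does not apply where most mice are at 0. For Ctsk in hormone-sensing cells and in other myeloid cells 6 of 7 mice had no UMI, so any count in the remaining mouse is flagged. Of the 10 flagged groups, 5 concern Ctsk. Replicate 5 stood apart with 796 CPM in tumor cells (next 8.72), 354 CPM in C1q macrophages (next 9.10) and 1107 CPM in other myeloid cells (next 0), where the 4 barcodes rich in Ctsk lie. Replicate 4 had the highest Ctsk in hormone-sensing cells (1.34 CPM, next 0) and in T/NK cells (11.9 CPM, next 4.94), on few UMIs (2 and 4 in all mice together).

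Replicate 4 was also highest for Ctss in hormone-sensing cells (56.8 CPM, next 24.0) and for Ctsd in fibroblasts (531 CPM, next 365). Replicate 3 was highest in other myeloid cells for Ctsb (2048 CPM, next 1038) and Ctsd (1006 CPM, next 422). Replicate 2 had the lowest Ctsb in tumor cells (581 CPM, next 702).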

How the results depend on the processing

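For the 7 cathepsins other than Ctsk, 37 differences (those called, and Ctsd in other myeloid cells) gave 868 values under 24 alternatives, of which 811 kept their direction and side of the threshold, 49 lost the call and 8 changed sign. The other 12 differences, none of them called, gave 280 values, of which 41 changed sign without a call and 11 gained one, all lower than tumor cells. These were Ctsd in fibroblasts (−0.54 to −0.66 in 3 settings), Ctsb (−0.97) and Ctsl (−0.87 to −1.10 in 3) in endothelial cells, and Ctsb (−0.36 to −0.63 in 3) and Ctss (−1.22) in hormone-sensing cells. For Ctsk 126 of 162 values kept their direction and side of the threshold, 10 lost and 8 gained a call and 18 changed sign. Of 949 values of the listed genes named, 26 lost the call and none changed sign. Fibroblasts against tumor cells (5 genes) gave 2 without mixed barcodes, 3 in the CB series, 3 in the WT series and 3 by the sign-flip test. Endothelial against tumor cells (3 genes) gave 6 with no filter on low counts and 1 in the CB series, where the lone endothelial sum is assumed to vary like the other sums. With the 3 endothelial mice the sign-flip p could not go below 0.25, so no count is given for it. Those endothelial tests still entered the adjustment of the sign-flip p values, which ran over 56 tests. With 9 principal components and resolution 0.6 no endothelial or other myeloid class was found.

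Sign changes of Ctsk in C1q macrophages against tumor cells were 4.79 with at least 500 genes, 0.65 without the 4 barcodes, 1.07 in DESeq2, 2.10 in the CB series, 0.33 by sign-flip and −0.19 to 1.92 with a replicate left out (1.92 without replicate 5). In other myeloid against tumor cells Ctsk was −1.95 (CB), −0.76 (sign-flip) and −1.79 (without replicate 5) to 1.15. In endothelial cells it was 1.23 without the 4 barcodes. In T/NK cells it was 0.23 without the 4, 0.44 in DESeq2, 2.10 (CB) and −5.94 to 1.41 (without replicate 5), and in C1q macrophages against other myeloid cells 0.24, 4.05 (CB), 1.09 (sign-flip) and −1.28 to 3.71 (without replicate 5). Ctsk gained calls with at least 500 genes in other myeloid against tumor cells (7.66), in endothelial cells with no filter (−4.49) and with the 2 classes alone (−5.30), and between the myeloid classes without mixed barcodes (−4.98), with at least 500 genes (−2.88) and with the 2 classes alone (−1.20). Per-barcode assignment gave 2.40 for Ctsd and 0.69 for Ctsl in other myeloid against tumor cells (both called), −0.99 (called) and −0.33 between the myeloid classes, and −0.45 for Ctss in fibroblasts. Ctsd in other myeloid cells was 0.23 with at least 500 genes, and Ctss in fibroblasts −0.34 without mixed barcodes and −0.81 by sign-flip. The cause was not tested.

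With no replicate block, the 7 comparisons called 7, 5, 4, 3, 4, 7 and 7 cathepsins, the calls lost being Ctsb in other myeloid cells (0.51, adjusted p = 0.0576) and Ctss in fibroblasts (1.01, adjusted p = 0.0942, edgeR). The block changed no other call of a cathepsin.

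Genes called in C1q macrophages against tumor cells (2815) became 1364 without mixed barcodes, 4601 in DESeq2 and 5687 with no filter. In the same order of settings the counts were 1078, 4010 and 4921 for fibroblasts (2627), 664, 2460 and 2931 for hormone-sensing cells (1636), and 1266, 4848 and 5690 for T/NK cells (2929). Other myeloid cells (2432) gave 1102 without mixed barcodes and 4450 with no filter, endothelial cells (1176) 533 without mixed barcodes, 542 (CB) and 763 without replicate 4, and the 2 myeloid classes (721) 390 without mixed barcodes, 396 per barcode and 480 (CB). With the 2 classes compared alone, hormone-sensing cells gave 2923, and with at least 500 genes T/NK cells gave 1896. The WT series gave 1606 (other myeloid), 1604 (fibroblast), 585 (endothelial), 511 (hormone-sensing), 1812 (T/NK) and 263 (between the myeloid classes). Without the 4 barcodes, no class other than fibroblasts held more than 17 Ctsk UMIs, and the endothelial sums held 98284 UMIs in all.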

Other observations

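Clusters outside the 7 classes held cathepsins too. The B or plasma-like cluster, led by Igkc, Ms4a1, Ighd, Iglc2 and Fcmr, had 771 ± 188 CPM of Ctss (SD, n = 4 mice, 144 UMIs) beside 6458 ± 1159 CPM of H2-Ab1, an MHC class II gene, and 64.6 ± 103 CPM of C1qa. Its Ctsb was 240 ± 124 CPM. The myoepithelial-like cluster, led by 1500015O10Rik, Mylk, Acta2, Cnn1 and Myh11, had 1140 ± 344 CPM of Ctsb, 734 ± 429 CPM of Ctsd and 27.6 ± 34.3 CPM of Ctsk on 6 UMIs (SD, n = 5 mice). Both are given as values, and no test was run on them.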
